A study of Homo sapiens with 6 samples.

Results

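The comparison described here sets HEK293T cells transfected with 4 µg of a plasmid against HEK293T cells transfected with 2 µg of the same plasmid, which carried the cloned miR-23a27a24-2 cluster. HEK293T cells derive from human embryonic kidney, express the large T antigen of SV40 and take up plasmid readily. Each dose was measured on 2 arrays from biological duplicates, and 2 further arrays of cells that received no plasmid served only to place each dose. No group received an empty plasmid, so what both dose groups share (the transfection, the vector and the cluster) and how each of these scales with dose cannot be told apart. All 6 arrays lay on 1 bead chip, the groups occupying neighbouring pairs of positions, so that position and group cannot be told apart either. A gene was included when its probe had a detection p-value under 0.01 on both arrays of either dose, which held for 7819 of the 8018 genes tested across the series. Of these, 7124 were detected on both arrays of both doses, 559 on both arrays at 4 µg but not at 2 µg, and 136 on both arrays at 2 µg but not at 4 µg.

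MicroRNAs are short RNAs that, loaded into Argonaute proteins, pair through bases 2 to 8 of their 5′ end (the seed) with messenger RNAs, whose stability and translation they lower. The miR-23a27a24-2 cluster is transcribed as a single primary RNA, which Drosha and then Dicer cut into separate hairpins and mature strands. Its members are known for roles in cell cycle control, lipid metabolism and apoptosis, and in HEK293T cells this cluster has been studied as an inducer of cell death. On GRCh38.p14 the 3 hairpins lie on the minus strand of chromosome 19, between 13836287 and 13836659, a span of 373 bases. The mature 3′ strands, from RefSeq, are shown because they are what the dose of plasmid was meant to raise. The capitals mark the seed.
hsa-miR-23a-3p: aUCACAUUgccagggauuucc
hsa-miR-27a-3p: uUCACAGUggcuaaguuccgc
hsa-miR-24-3p: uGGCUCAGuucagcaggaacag
The miR-23a-3p and miR-27a-3p seeds both begin UCACA and differ in 1 letter near their end, and the miR-24-3p seed is unlike either. The arrays measure messenger RNA, so the levels of these microRNAs at either dose are not analysed here.

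Of 48701 probes, the 4 µg replicates detected 9768 and 10371, the 2 µg replicates 9278 and 9553, and the control replicates 9558 and 9721, so that both 4 µg arrays exceeded either 2 µg array. The median number of beads behind a probe was 40. Levels are given below as log2 of the background-corrected and quantile-normalized intensity, with 1 probe per gene, and the intensity of a probe says nothing of its level against another gene's probe. The median standard deviation of duplicates over the included genes was 0.08 at 4 µg, 0.12 at 2 µg and 0.10 in the control. Of 10 genes taken as characteristic of HEK293 cells, KRT8, KRT18, VIM and CXADR were detected on all arrays, NEFL on both 4 µg arrays, no 2 µg array and both control arrays, NEFM on 1 array of each dose and both control arrays, and NES, PAX2, LHX1 and IRS4 on none. Of 10 haematopoietic genes, CD68 and HBA1 were detected on all arrays, and PTPRC, CD3E, CD79A, CD14, LYZ, SPI1, LCP1 and HBB on none. In bulk samples such as these, fewer cells of a kind and less RNA per cell cannot be told apart.

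Among the 7819 genes, 710 (9.08%) differed between the doses at an adjusted p under 0.05 in limma's moderated test, adjusted after Benjamini and Hochberg across the 8018 genes of the series. Of these, 417 (5.33%) were higher and 293 (3.75%) lower at 4 µg. A fold of more than 1.5 was reached by 273 of the higher and 186 of the lower genes, and a fold of more than 2 by 32 and 17. The smallest difference that was called was 0.44 log2 units, against a median standard error of 0.14. All 710 had both arrays of one dose beyond both of the other, which was also true of 57.8% of all included genes and 57.3% of all tested genes. In that larger set the 4 µg arrays lay above the 2 µg arrays for 29.4% of the included genes and below them for 28.4%. Among the 7124 genes detected on both arrays of both doses, 292 were higher and 271 lower. At an unadjusted p under 0.05, 2134 of the included genes differed.

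The count rests on duplicates. Without 4 µg replicate 1 it was 98 of the 8018 genes, without 4 µg replicate 2 it was 121, without 2 µg replicate 1 it was 213 and without 2 µg replicate 2 it was 559, against 720 (8.98%, with 5.33% higher and 3.65% lower) with all arrays. Scaling the arrays by the median of all probes, in place of quantiles, moved the median difference over all tested genes to 0.15 log2 units and called 870 genes higher and 102 lower (89.5% higher), against 427 and 293 (59.3% higher) with quantiles. A change below is therefore relative to the middle of all genes.

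Both doses were placed against the untransfected cells in the same fit, and the 3 comparisons share arrays. Against the control, 21.5% of the included genes were called at 4 µg (12.1% higher, 9.44% lower) and 41.3% at 2 µg (22.3% higher, 19% lower). The median absolute difference from the control was 0.23 log2 units at 4 µg and 0.32 at 2 µg, beside 0.20 between the doses. The genes called higher at 4 µg had a median difference from the control of -0.18 at 4 µg and -0.84 at 2 µg. Those called lower had a median difference from the control of 0.24 at 4 µg and 0.87 at 2 µg. In both directions the 2 µg arrays thus stood farther from the untransfected cells in the median of these genes than the 4 µg arrays did.

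**Figure D1:**
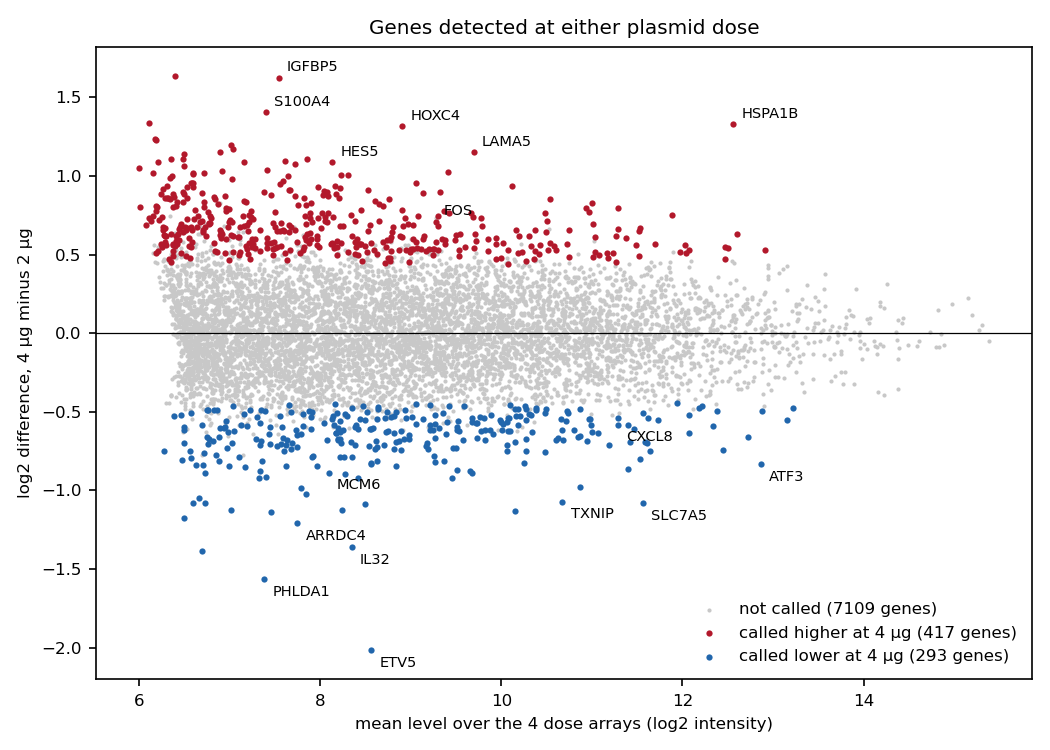
Each point is 1 of the 7819 included genes, with its mean log2 level over the 4 dose arrays on the horizontal axis and its log2 difference, 4 µg minus 2 µg, on the vertical axis. Red points are the 417 genes called higher and blue points the 293 called lower at 4 µg, and among 4 equal groups of genes by level the called share was 11.6% in the lowest group and 6.34% in the highest.

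The largest fall at 4 µg was in ETV5, an ETS-family transcription factor gene induced by ERK signalling. Its level was 7.54 and 7.58 at 4 µg, 9.43 and 9.72 at 2 µg, and 6.39 and 6.48 in the control. Both 4 µg arrays thus lay between the control and the 2 µg arrays. ETV5 fell by 2.02 ± 0.14 log2 units (SE, 2 arrays per dose, adjusted p = 0.000221), so that its intensity at 2 µg was 4.05 times that at 4 µg. PHLDA1, a gene that growth factors induce, stood at 6.48 and 6.72 at 4 µg, 8.38 and 7.95 at 2 µg, and 6.15 and 6.16 in the control, where it was not detected. It fell by 1.56 ± 0.16 (adjusted p = 0.00128), the 4 µg arrays again lying between the others. ETV4, a close relative of ETV5, was at 5.85 and 5.97 at 4 µg, where it was not detected, against 7.25 and 6.92 at 2 µg and 5.59 and 5.24 in the control. It was at least 1.65-fold lower at 4 µg (adjusted p = 0.00426).

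These 3 genes belong to a list of 12 measured genes, named ERK feedback genes here, that ERK induces. Some of its members feed back on the pathway. On it, 7 genes were lower and 0 higher at 4 µg (58.3% called). The median difference was -0.64, against -0.00 over all included genes. Counts for this and later lists stand beside 9.08% called, 5.33% higher and 3.75% lower over all included genes. The list stood at a median of 0.38 above the control at 4 µg and of 0.81 above it at 2 µg. SPRED2, whose product restrains Ras signalling to Raf, was at 8.02 and 8.27 at 4 µg, 8.91 and 9.05 at 2 µg, and 8.27 and 8.0 in the control, and fell by 0.83 (adjusted p = 0.0109). DUSP5, which encodes a nuclear ERK phosphatase, was at 8.69 and 8.61 at 4 µg, 9.25 and 9.39 at 2 µg, and 8.17 and 8.16 in the control, and fell by 0.67 (adjusted p = 0.0131). The 2 µg arrays were the highest for both genes, with no overlap between the doses. SPRY1 and SPRY2, the Sprouty inhibitors of receptor tyrosine kinase signalling, differed by -0.49 and -0.43 and were not called (adjusted p = 0.0583 and 0.0591). EPHA2, an ephrin receptor gene outside the list, was at 10.40 and 10.37 at 4 µg, 11.44 and 11.29 at 2 µg, and 10.34 and 10.06 in the control. It fell by 0.97 ± 0.14 (adjusted p = 0.00499), its 4 µg arrays close to the control. The calls of ETV5, PHLDA1, ETV4 and EPHA2 held without each array in turn, and 3 to 7 genes of the list were lower under those omissions.

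**Figure D2:**
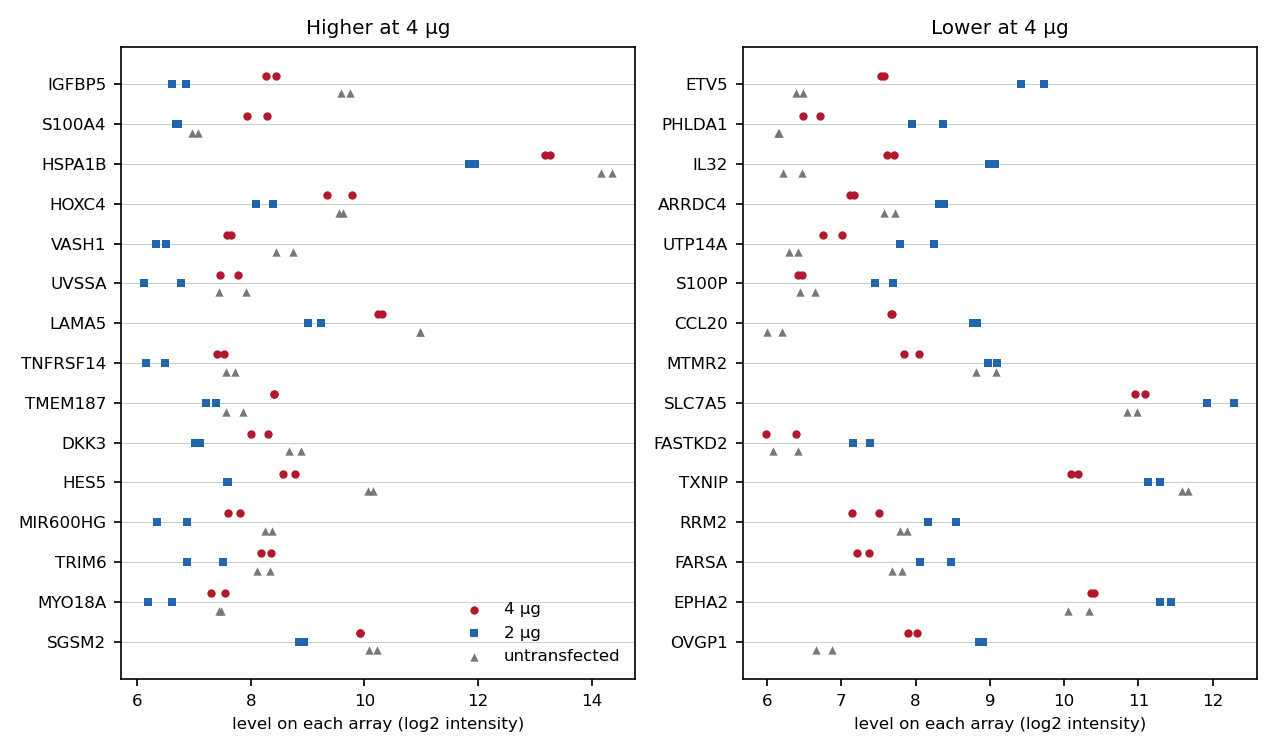
Log2 level on each of the 6 arrays for the 15 genes with the largest rise (left) and the 15 with the largest fall (right) at 4 µg. They were taken among called genes detected on 1 or more arrays of each dose. VASH1, UVSSA, TNFRSF14, MIR600HG and MYO18A were detected on only 1 array at 2 µg, and FASTKD2 on only 1 array at 4 µg. Red circles are the 4 µg arrays, blue squares the 2 µg arrays and grey triangles the untransfected arrays. Genes were shown only if their red and blue points did not overlap.

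Immediate early genes, which are transcribed within minutes of a stimulus without new protein, moved both ways. Of 18 measured genes on this list, 7 were lower and 2 higher at 4 µg (50% called), with a median of -0.38 between the doses. The same list stood at a median of 0.83 above the control at 4 µg and of 0.99 above it at 2 µg. ATF3, a stress-induced transcription factor gene, was at 12.45 and 12.45 at 4 µg, 13.44 and 13.13 at 2 µg, and 10.95 and 10.71 in the control. It fell by 0.83 ± 0.15 (adjusted p = 0.0109) and remained far above the control at both doses. GADD45B, which activates stress kinase cascades, was at 9.24 and 9.21 at 4 µg, 10.18 and 10.06 at 2 µg, and 7.90 and 7.57 in the control, and fell by 0.89 ± 0.14 (adjusted p = 0.00694). Its relative GADD45A was at 8.96 and 8.77 at 4 µg, against 9.78 and 9.51 at 2 µg, and fell by 0.78 (adjusted p = 0.0211). IER3 and ZFP36, the second a destabilizer of cytokine messengers, fell by 0.86 and 0.70.

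The other direction was taken by FOS and FOSB, which encode subunits of the AP-1 transcription factor. FOS was at 9.75 and 9.51 at 4 µg, 8.67 and 9.18 at 2 µg, and 7.02 and 7.28 in the control. It rose by 0.71 ± 0.18 (adjusted p = 0.038), its 4 µg arrays being the highest of the 6 and its control arrays the lowest. FOSB was at 7.67 and 7.33 at 4 µg, 6.97 and 6.67 at 2 µg, and 6.37 and 6.12 in the control, and rose by 0.68 (adjusted p = 0.0314). FOSL1, a further member of the family, went the other way and fell by 0.68 (adjusted p = 0.0431). Without 1 of the arrays the calls of FOS, ATF3 and GADD45A ended, with adjusted p of up to 0.216, 0.0643 and 0.126, as did those of IER3 (up to 0.077) and ZFP36 (up to 0.0952). Under those omissions 1 to 8 genes of the list were lower.

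NF-kB is a transcription factor that drives chemokine and cytokine genes and, in turn, its own inhibitors. On a list of such genes, 14 were measured. Of these, 7 were lower and 0 higher at 4 µg (50% called), at a median of -0.48. They stood at a median of 1.19 above the control at 4 µg and of 1.75 above it at 2 µg. The promoter stretches of 5 of the 7 that fell are printed because each holds the NF-kB core GGANTTTCC, searched on both strands, in capitals. They are from RefSeq, on GRCh38.p14, and run upstream of the gene's start on the gene's own strand, which is the plus strand for all 5.
CXCL8, chr4:73740458-73740506: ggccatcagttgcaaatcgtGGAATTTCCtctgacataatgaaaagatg
CXCL1, chr4:73869295-73869343: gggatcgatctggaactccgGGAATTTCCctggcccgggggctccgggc
IL32, chr16:3065285-3065363: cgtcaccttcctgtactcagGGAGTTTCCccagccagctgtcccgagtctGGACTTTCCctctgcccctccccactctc
TNFAIP3, chr6:137867172-137867220: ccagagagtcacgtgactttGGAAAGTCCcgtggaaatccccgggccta
NFKB1, chr4:102501291-102501339: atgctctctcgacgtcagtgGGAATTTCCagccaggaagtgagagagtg
The core was present in 7 of the 11 promoters of the list that the table held, within 250 bases before to 50 after the start. Besides the 5 printed, these were the promoters of NFKBIA and NFKBIZ, neither of which was called. For the lower genes CCL20 and RELB no match was found, and the promoter of RELB was not held. The core was present in 1.6% of all 27305 promoters, in 1.67% of the included genes, in 0.587% of those called higher and in 5.15% of those called lower at 4 µg. The core was chosen with the values of these genes known, and the 5 printed genes are themselves part of the share among those called lower. A match describes letters and does not show that the factor binds there.

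Among the ligands, CXCL8, the neutrophil chemokine interleukin-8, was at 10.992 and 11.002 at 4 µg, 11.51 and 11.65 at 2 µg, and 7.68 and 7.70 in the control. It fell by 0.58 ± 0.12 (adjusted p = 0.0206) while remaining far above the control at both doses. CCL20, which attracts lymphocytes and dendritic cells, was at 7.67 and 7.69 at 4 µg, 8.77 and 8.82 at 2 µg, and 6.00 and 6.21 in the control, where it was not detected, and fell by 1.12 ± 0.13 (adjusted p = 0.00267). IL32, a cytokine gene, was at 7.71 and 7.62 at 4 µg, 8.99 and 9.07 at 2 µg, and 6.47 and 6.21 in the control, and fell by 1.36 ± 0.14 (adjusted p = 0.00122). For these 3 ligands both 4 µg arrays lay between the control and the 2 µg arrays. CXCL1, another neutrophil chemokine gene, fell by 0.53 (adjusted p = 0.0293).

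Of the factor's own subunits, NFKB1 was at 11.97 and 12.11 at 4 µg, 12.61 and 12.65 at 2 µg, and 10.99 and 10.74 in the control, and fell by 0.59 (adjusted p = 0.0268). RELB was at 6.21 and 6.22 on the 4 µg arrays, detected on neither, against 7.10 and 7.01 on the 2 µg arrays, and was at least 1.61-fold lower at 4 µg (adjusted p = 0.00608). TNFAIP3, a ubiquitin-editing inhibitor of the pathway, was at 9.02 and 8.82 at 4 µg, 9.57 and 9.45 at 2 µg, and 6.12 and 6.30 in the control, where it was not detected. It fell by 0.59 ± 0.14 (adjusted p = 0.0283), with the doses not overlapping. Of these genes, IL32 and CCL20 stayed called without each array in turn and with the arrays scaled by the median of all probes. CXCL8 and TNFAIP3 lost their calls under that scaling and without 1 of the dose arrays, with adjusted p of up to 0.131 and 0.183, and 2 to 7 genes of the list were lower without 1 of the arrays.

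ATF4 is the transcription factor of the integrated stress response, which restrains translation and induces genes of amino acid supply. Of 25 measured genes of this response, 6 were lower and 0 higher at 4 µg (24% called), with a median of -0.29. Without 1 of the arrays 1 to 5 of them were lower, and under scaling by the median of all probes 3 were. The list stood at a median of 0.49 above the control at 4 µg and of 0.73 above it at 2 µg. TRIB3, a pseudokinase gene that ATF4 and its partner DDIT3 induce, was at 11.06 and 11.08 at 4 µg, 11.85 and 11.68 at 2 µg, and 9.22 and 9.41 in the control. It fell by 0.69 ± 0.13 (adjusted p = 0.0142), its 4 µg arrays lying between the others. DDIT3, also called CHOP, was at 9.09 and 9.16 at 4 µg, 9.54 and 9.21 at 2 µg, and 7.16 and 7.25 in the control. Its difference of -0.25 was not called (adjusted p = 0.28). The other lower genes of the list, besides ATF3 and TXNIP, which are described elsewhere in the text, were STC2, MTHFD2 and ATF5, with falls between 0.46 and 0.64. The amino acid response core TGATGNAA, on either strand, was present in 2 of 20 promoters of the list and in 3.75% of all promoters. It was present in 0.293% of the promoters of genes called higher and 4.29% of those of genes called lower, against 1.86% of those of all included genes.

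Amino acid transporters fell in part. SLC7A5, the large neutral amino acid transporter, was at 10.96 and 11.08 at 4 µg, 12.28 and 11.92 at 2 µg, and 10.98 and 10.85 in the control. It fell by 1.08 ± 0.15 (adjusted p = 0.00426), and its 4 µg arrays overlapped the control. Of 13 measured transporters, 4 were lower and 0 higher (30.8% called). The others were SLC7A1, SLC1A5 and SLC1A4, which fell by 0.69, 0.53 and 0.52. Without 1 of the arrays 1 to 3 transporters were lower, and under scaling by the median of all probes 2 were lower and 1 higher. Among 19 cytosolic aminoacyl-tRNA synthetase genes, 2 were lower and 0 higher (10.5% called, near the 9.08% of all included genes). FARSA, the phenylalanine enzyme's alpha subunit, was at 7.21 and 7.37 at 4 µg, 8.48 and 8.07 at 2 µg, and 7.68 and 7.81 in the control, and fell by 0.98 ± 0.16 (adjusted p = 0.00697). Its 4 µg arrays lay below the control and its 2 µg arrays above it. GARS1, the glycine enzyme, fell by 0.48 (adjusted p = 0.0483). Of the calls in this paragraph and for TRIB3, the one of SLC7A5 held without each array. That of FARSA ended without 4 µg replicate 1 (adjusted p = 0.0551), that of TRIB3 without either 4 µg array or 2 µg replicate 1 (up to 0.0887), and that of GARS1 without any 1 of the 6 arrays (up to 0.209).

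Endoplasmic reticulum chaperones, which the unfolded protein response induces, showed 1 call among 26 measured genes (3.85%, against 9.08% of all included genes). HSPA5, the main chaperone of that compartment, was at 9.60 and 9.53 at 4 µg, 9.51 and 9.48 at 2 µg, and 10.23 and 9.93 in the control. Its difference between the doses was 0.07 ± 0.14 (adjusted p = 0.778). XBP1 and CALR differed by -0.31 and -0.47 and were not called (adjusted p = 0.147 and 0.0744). The gene called was CRELD1, higher at 4 µg by 0.67 (adjusted p = 0.0133). The endoplasmic reticulum stress element, in its consensus form on either strand, was present in 5 of 25 promoters of the list, those of HSPA5, HSP90B1, CALR, PDIA6 and CRELD2, and in 0.0806% of all promoters.

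Ribosome biogenesis genes, whose products process ribosomal RNA in the nucleolus, were lower at 4 µg in 12 of 31 cases and higher in 0 (38.7% called). Their median difference was -0.37. They stood at a median of 0.24 above the control at 4 µg and of 0.70 above it at 2 µg, and for 27 of the 31 both 4 µg arrays lay below both 2 µg arrays, against 28.4% of all included genes. UTP14A, a component of the small-subunit processome, was at 7.02 and 6.75 at 4 µg, 8.25 and 7.79 at 2 µg, and 6.29 and 6.42 in the control. It fell by 1.14 ± 0.17 (adjusted p = 0.00579), with no overlap between the doses. RRP9, which binds the U3 small nucleolar RNA, was at 7.89 and 8.02 at 4 µg, 8.74 and 8.74 at 2 µg, and 8.09 and 7.99 in the control, and fell by 0.79 ± 0.13 (adjusted p = 0.00694). NCL, or nucleolin, was at 6.80 and 6.93 at 4 µg, against 7.54 and 8.04 at 2 µg and 6.84 and 7.06 in the control, and fell by 0.92 ± 0.17 (adjusted p = 0.0131). RRP9 and NCL thus stood close to the control at 4 µg and above it at 2 µg.

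The helicase gene DDX21 and the GTPase gene GNL2 had among the highest levels of the genes called lower. DDX21 was at 12.43 and 12.36 at 4 µg, 12.95 and 13.16 at 2 µg, and 11.68 and 11.84 in the control, and fell by 0.66 (adjusted p = 0.0179). GNL2 fell by 0.55 (adjusted p = 0.0254). The remaining lower genes were RRP12, RRS1, NOP16, PES1, UTP4, DDX10 and NOLC1, of which RRP12 fell by 0.84 and the others by less. Without 1 of the arrays 2 to 11 genes of the list were lower. The call of UTP14A held throughout, while that of RRP9 ended without 4 µg replicate 1 (adjusted p = 0.0666) and those of DDX21 and NCL without either 4 µg array (up to 0.116 and 0.0786), DDX21 also without 2 µg replicate 2. In contrast, 0 of 59 cytosolic ribosomal protein genes were called, and their median difference was 0.01, turning to 0.15 when the arrays were scaled by the median of all probes. Likewise 0 of 69 mitochondrial ribosomal protein genes were called. At the other settings tried, at most 3 genes of either list were called.

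The E-box CACGTG, a palindrome read by MYC and related factors, was present in 11 of 26 promoters of the ribosome biogenesis list, in 7.27% of all promoters and in 10.6% of the included genes' promoters. It was present in 9.68% of the promoters of genes called higher and in 16.7% of those of genes called lower. On the list of TXNIP, arrestins and MondoA, described next, 1 of 5 promoters held it, that of ARRDC4. The stretches of 2 lower genes are printed for this motif, from RefSeq on GRCh38.p14, plus strand, with the E-box in capitals. This motif, the NF-kB core and the E2F core below were chosen with the values of these genes known. Lower genes that hold the E-box, UTP14A and ARRDC4 among them, are themselves part of the share among those called lower.
UTP14A, chrX:129905914-129905948: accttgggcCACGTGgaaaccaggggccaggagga
ARRDC4, chr15:97960473-97960518: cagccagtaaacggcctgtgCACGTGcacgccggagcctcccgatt

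ARRDC4 and TXNIP encode arrestin-like proteins that restrain glucose uptake and are induced by the glucose-sensing factor MondoA. ARRDC4 was at 7.17 and 7.12 at 4 µg, 8.32 and 8.38 at 2 µg, and 7.58 and 7.72 in the control. It fell by 1.21 ± 0.13 (adjusted p = 0.00128), the 4 µg arrays below the control and the 2 µg arrays above it. TXNIP was at 10.18 and 10.09 at 4 µg, 11.29 and 11.13 at 2 µg, and 11.67 and 11.58 in the control, and fell by 1.07 ± 0.13 (adjusted p = 0.00272). Here the 4 µg arrays were the lowest of the 6 and both doses lay below the control. Both calls held without each array in turn.

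Genes of the G1/S transition and of DNA replication were lower at 4 µg in 11 of 47 cases and higher in 0 (23.4% called). Their median difference was -0.29. In median they stood 0.08 below the control at 4 µg (-0.08) and 0.25 above it at 2 µg. The E2F core TTTNNCGC, named for the factors that open S phase, was present on either strand in 19 of 40 promoters of the list and in 6.82% of all promoters. It was present in 7.92% of the promoters of genes called higher, 15.9% of those of genes called lower and 11.1% of those of all included genes. The core was chosen with the values of these genes known. Lower genes of the list that hold it, the 3 printed below among them, are themselves part of the share among those called lower. The stretches of 3 lower genes of the list are printed, from RefSeq on GRCh38.p14, all on the minus strand, with the core in capitals. Where cores overlap, the capitals run together.
MCM6, chr2:135876502-135876615: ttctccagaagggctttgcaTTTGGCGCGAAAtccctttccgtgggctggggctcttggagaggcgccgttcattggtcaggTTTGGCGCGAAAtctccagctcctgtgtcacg
MCM3, chr6:52284865-52284936: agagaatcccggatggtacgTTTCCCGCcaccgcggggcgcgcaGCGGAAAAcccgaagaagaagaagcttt
E2F1, chr20:33686386-33686527: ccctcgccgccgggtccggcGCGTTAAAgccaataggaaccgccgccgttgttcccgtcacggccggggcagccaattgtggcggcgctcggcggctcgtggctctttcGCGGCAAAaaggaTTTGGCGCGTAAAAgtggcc

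Of the regulators, E2F1 was at 10.36 and 10.32 at 4 µg, 11.07 and 10.97 at 2 µg, and 10.29 and 10.15 in the control. It fell by 0.68 ± 0.13 (adjusted p = 0.0127), its 4 µg arrays close to the control. E2F2 was at 11.23 and 11.29 at 4 µg, 12.14 and 11.77 at 2 µg, and 11.08 and 11.09 in the control, and fell by 0.70 (adjusted p = 0.0187). CDC25A, the phosphatase that activates the S-phase kinases, was at 9.71 and 9.68 at 4 µg, 10.48 and 10.40 at 2 µg, and 9.12 and 9.49 in the control, and fell by 0.75 (adjusted p = 0.0156). All 3 regulators were highest at 2 µg. The cyclin genes CCNE2 and CCND1 fell by 0.70 and 0.62, and in both of them the 4 µg arrays were below the control.

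Among the effectors of replication, RRM2, the small subunit of ribonucleotide reductase, was at 7.15 and 7.51 at 4 µg, 8.55 and 8.16 at 2 µg, and 7.89 and 7.79 in the control. It fell by 1.02 ± 0.17 (adjusted p = 0.00767). MCM6, a subunit of the replicative helicase, was at 7.61 and 7.69 at 4 µg, 8.35 and 8.72 at 2 µg, and 8.03 and 7.97 in the control, and fell by 0.89 ± 0.15 (adjusted p = 0.00815). For RRM2 and MCM6 the 4 µg arrays lay below and the 2 µg arrays above the control. MCM3, CDC6, ORC1 and MCM10, which load or activate that helicase, fell by between 0.50 and 0.67. The call of MCM6 ended without 4 µg replicate 1 (adjusted p = 0.0611), that of RRM2 without 4 µg replicate 1 or 2 µg replicate 1 (up to 0.0629), and those of E2F1, E2F2 and CDC25A without either 4 µg array or 2 µg replicate 1 (up to 0.0881, 0.114 and 0.0888). Between 0 and 9 genes of the list were lower without 1 of the arrays.

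Mitotic genes did not follow. Of 41 measured genes of G2 and mitosis, 2 were higher and 0 lower (4.88% called), with a median of -0.02. CDC25C and CDC25B, the phosphatases that trigger entry into mitosis, rose by 0.47 and 0.51 (adjusted p = 0.0431 and 0.0437), and both calls ended without any 1 of the 6 arrays (up to 0.221 and 0.278). Replication-dependent histone genes stood at a median of 1.17 above the control at 4 µg and of 1.16 above it at 2 µg. Between the doses 1 of the 10 measured was called (10%, against 9.08% of all included genes). This was H2BC5, at 9.78 and 9.95 at 4 µg, 9.17 and 9.30 at 2 µg, and 8.60 and 8.95 in the control, a rise of 0.63 (adjusted p = 0.0293).

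**Figure D3:**
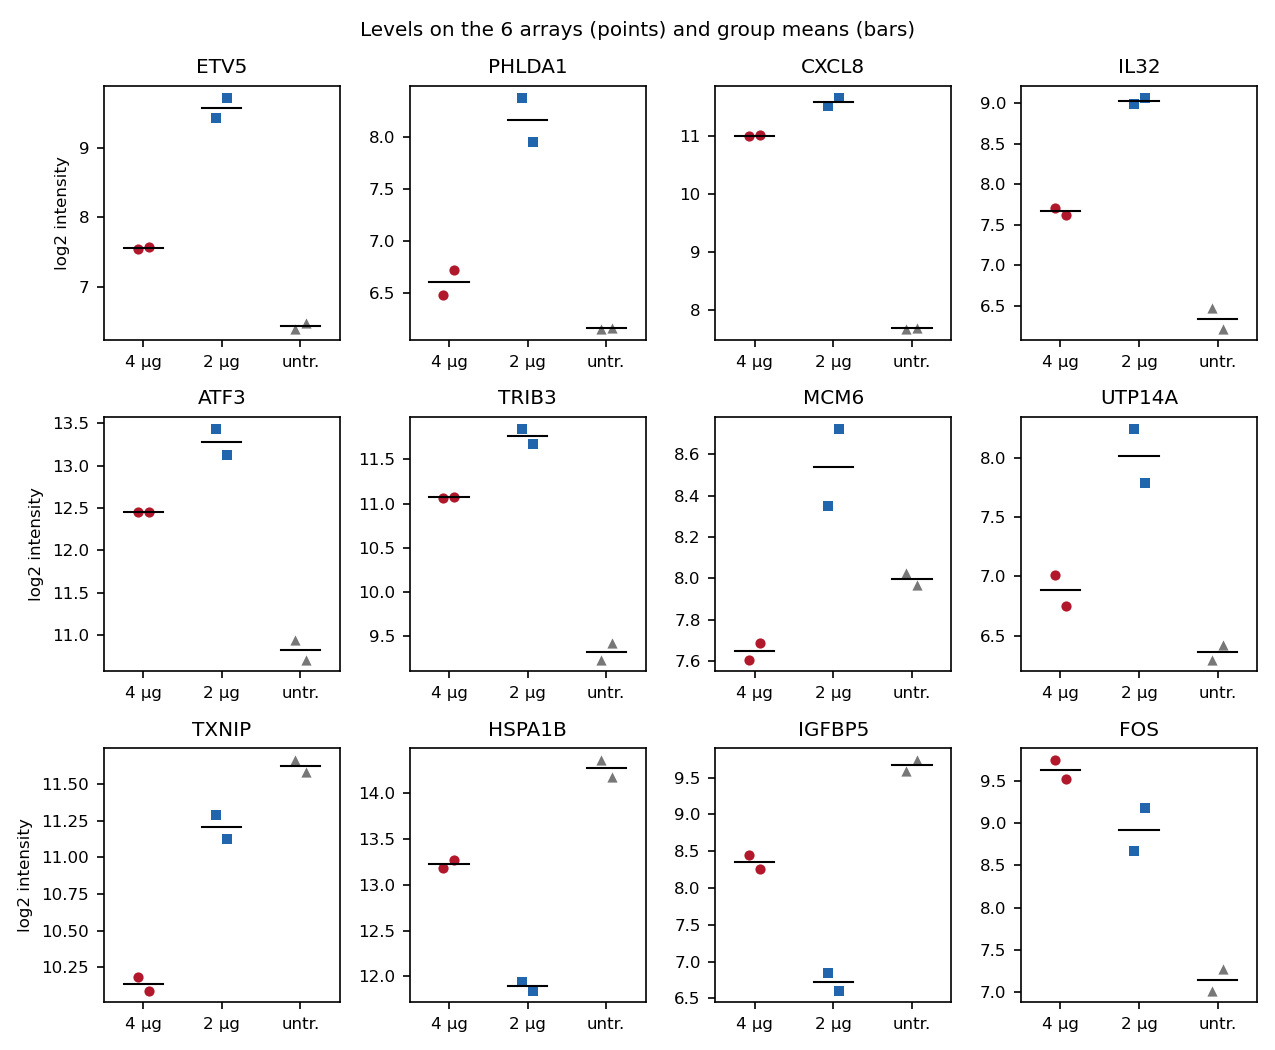
Log2 level on each array (points, with the bar at the mean of the 2 arrays) for 12 named genes at 4 µg, at 2 µg and in untransfected cells (untr.), with a separate vertical axis per gene. ETV5, PHLDA1, CXCL8, IL32, ATF3, TRIB3 and UTP14A are highest at 2 µg and lowest in the control, MCM6 and TXNIP are lowest at 4 µg, HSPA1B and IGFBP5 are lowest at 2 µg, and FOS is highest at 4 µg.

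The largest rise at 4 µg among genes detected at both doses was in IGFBP5, a secreted protein that binds insulin-like growth factors. Its level was 8.44 and 8.26 at 4 µg, 6.85 and 6.60 at 2 µg, and 9.59 and 9.74 in the control. It rose by 1.63 ± 0.14 (adjusted p = 0.00119), a fold of 3.09, and its 4 µg arrays lay between the 2 µg arrays and the control. Of 5 measured genes of the IGF system, 2 were higher and 0 lower (40% called). The second was IGF2R, the receptor that delivers IGF2 to lysosomes, at 11.33 and 11.32 at 4 µg, 10.87 and 10.78 at 2 µg, and 11.07 and 11.01 in the control, a rise of 0.50 (adjusted p = 0.0335). S100A4, a calcium-binding protein linked to cell motility, was at 8.28 and 7.93 at 4 µg, 6.68 and 6.72 at 2 µg, and 7.08 and 6.96 in the control. It rose by 1.40 ± 0.15 (adjusted p = 0.00128), the doses lying on opposite sides of the control, and a second kept probe for the gene gave a difference of 1.41.

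Genes of the extracellular matrix were higher at 4 µg in 4 of 11 cases and lower in 0 (36.4% called), at a median of 0.26. They stood below the control at both doses, with medians of -0.66 at 4 µg and -0.88 at 2 µg. LAMA5, a laminin chain of basement membranes, was at 10.31 and 10.23 at 4 µg, 9.0 and 9.24 at 2 µg, and 10.98 and 10.98 in the control, and rose by 1.15 ± 0.13 (adjusted p = 0.00267). COL5A2, a chain of fibrillar collagen, was at 9.04 and 9.0 at 4 µg, 8.01 and 8.36 at 2 µg, and 9.37 and 9.29 in the control, and rose by 0.84 ± 0.14 (adjusted p = 0.00949). In both genes the 4 µg arrays were nearer the control. COL4A5 rose by 0.76 (adjusted p = 0.0378), and COL18A1, not detected on either 2 µg array, was at least 1.28-fold higher at 4 µg (adjusted p = 0.0131). The call of LAMA5 held without each array, those of the collagens did not (adjusted p of up to 0.0629 for COL5A2, 0.184 for COL4A5 and 0.109 for COL18A1), and 1 to 4 genes of the list were higher.

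Beside this list, genes taken as fibroblast markers were followed. Of 4 that were included, 1 was higher, LUM, a matrix proteoglycan not detected on either 2 µg array and at least 1.42-fold higher at 4 µg (adjusted p = 0.00554, and 0.0517 without 4 µg replicate 1). The summed linear intensity of the 11 fibroblast markers was 2809 and 2727 at 4 µg, 2221 and 2294 at 2 µg, and 4642 and 4500 in the control. COL1A2, DCN, PDGFRA, PDGFRB, THY1 and FAP were detected on no array. The part of these markers in the matrix result was not tested. Of the 3 included epithelial markers KRT19, a keratin, rose by 0.65 (adjusted p = 0.0254), CDH1 being detected on no array. That call ended without either 4 µg array or 2 µg replicate 1 (up to 0.191), and the other included markers, MUC1 and ELF3, differed by -0.29 and 0.04 and were not called. The summed intensity of the 10 epithelial markers was 733.7 and 737.3 at 4 µg, 640.3 and 671.5 at 2 µg, and 970.7 and 1068 in the control. Of the included neuronal (4) and haematopoietic (2) markers 0 were called at any setting tried.

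Among developmental signalling genes, 8.33% of the Notch list and 22.7% of the TGF-beta and BMP list were called, against 9.08% of all included genes. HES5, a Notch target that represses differentiation, was at 8.57 and 8.78 at 4 µg, 7.60 and 7.57 at 2 µg, and 10.07 and 10.15 in the control. It rose by 1.09 ± 0.13 (adjusted p = 0.00272) and was the only call among 12 measured Notch genes. HOXC4, a homeobox gene, was at 9.34 and 9.78 at 4 µg, 8.09 and 8.40 at 2 µg, and 9.55 and 9.61 in the control, and rose by 1.32 ± 0.17 (adjusted p = 0.00349). DKK3, of the Dickkopf family of secreted proteins, was at 8.0 and 8.30 at 4 µg, 7.02 and 7.10 at 2 µg, and 8.89 and 8.67 in the control, and rose by 1.09 ± 0.15 (adjusted p = 0.00386). All 3 were lowest at 2 µg, and their calls held without each array.

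TGF-beta and BMP signalling had 22 measured genes, of which 3 were higher and 2 lower. Of the ligands, BMP4 was included only through 4 µg and BMP2 only through 2 µg. The direction of each of these calls was fixed by that choice, and both are part of the list's counts. BMP4 was at 7.37 and 7.16 at 4 µg, against 6.37 and 6.42 at 2 µg, where it was not detected, and 7.26 and 7.48 in the control, and was at least 1.71-fold higher at 4 µg (adjusted p = 0.00694, and 0.0658 without 4 µg replicate 1). BMP2 was at 6.24 and 6.03 at 4 µg, where it was not detected, against 7.32 and 7.05 at 2 µg, and was at least 1.77-fold lower (adjusted p = 0.00426). It was not detected in the control either, at 5.93 and 6.04. SMAD6, an inhibitor of BMP signalling, rose by 0.91 (adjusted p = 0.00694, and 0.0563 without 4 µg replicate 2), and TGFBR3, a co-receptor, by 0.57 (adjusted p = 0.0241, and up to 0.159 without 1 of the dose arrays).

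Heat shock proteins, the chaperones of the cytosol and of mitochondria, were higher in 3 of 24 measured cases and lower in 0. The called share was 12.5%, against 9.08% of all included genes, and the median was 0.03. HSPA1B, the inducible HSP70, was at 13.18 and 13.27 at 4 µg, 11.94 and 11.84 at 2 µg, and 14.36 and 14.17 in the control. It rose by 1.33 ± 0.13 (adjusted p = 0.00122) and its 4 µg arrays lay between the 2 µg arrays and the control. HSPA1B has a near-identical neighbour, HSPA1A, so that its probe may report both genes. HSPB1, a small heat shock protein, was at 11.75 and 11.95 at 4 µg, 11.21 and 11.19 at 2 µg, and 12.62 and 12.65 in the control, and rose by 0.65 (adjusted p = 0.0158). HSPE1, the mitochondrial co-chaperonin, rose by 0.51 (adjusted p = 0.038). All 3 were lowest at 2 µg, and the call of HSPA1B held without each array while those of HSPB1 and HSPE1 reached adjusted p of 0.128 and 0.243. The heat shock element, in its consensus form on either strand, was present in 6 of 22 promoters of the list, none of them of a called gene, and in 0.502% of all promoters.

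Among metabolic and organelle lists, the called share was 3.03% for the respiratory chain, 8.33% for cholesterol and fatty acid synthesis and 7.69% for glycolysis and hypoxia. It was 17.4% for the lysosome, against 9.08% of all included genes. Of 66 genes of the respiratory chain and ATP synthase, 2 were higher (COX6C by 0.76 and NDUFA1 by 0.51, adjusted p = 0.0397 and 0.0431) and 0 lower, at a median of 0.18. Both 4 µg arrays lay above both 2 µg arrays for 36 of the 66 and below for 3, against 29.4% and 28.4% of all included genes. The list's medians against the control were -0.13 at 4 µg and -0.30 at 2 µg. COX6C was at 10.89 and 10.85 at 4 µg, 9.75 and 10.46 at 2 µg, and 10.68 and 10.82 in the control, so that its 2 µg replicates differed widely. Both calls ended without either control array and without 1 of the dose arrays (up to 0.168 and 0.262).

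Cholesterol and fatty acid synthesis gave 2 higher of 24, INSIG1, the sterol-sensing brake on that pathway, and ACSS2, which makes acetyl-CoA from acetate. INSIG1 was at 9.37 and 9.27 at 4 µg, 8.53 and 8.73 at 2 µg, and 10.44 and 10.53 in the control, and rose by 0.69 (adjusted p = 0.0135). ENO2 and PFKFB4, enzymes of glycolysis and its control, rose by 0.87 and 0.54 as the calls among 26 genes of glycolysis and hypoxia. Lysosomal genes gave 3 higher and 1 lower of 23. LAMP2 and CTSD, a membrane protein and a protease of the organelle, rose by 0.53 and 0.47, while GUSB, a glycosidase, fell by 0.53. The other kept probes of LAMP2 differed by 0.48 and by -0.00, so that the gene's change depends on the probe. Each of these calls ended without 1 or more of the 4 dose arrays.

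Of 24 measured genes of the interferon response, 3 were higher and 4 lower (29.2% called). Under scaling by the median of all probes 6 were higher and 0 lower, and without 1 of the arrays 0 to 3 were higher and 0 to 2 lower. IFIT1, an RNA-binding antiviral protein, was at 8.29 and 8.25 at 4 µg, 7.52 and 7.50 at 2 µg, and 8.19 and 8.08 in the control, and rose by 0.76 ± 0.12 (adjusted p = 0.00709). Its neighbour in function IFIT2 was at 8.22 and 8.28 at 4 µg, 8.93 and 8.80 at 2 µg, and 7.71 and 7.81 in the control, and fell by 0.61 ± 0.13 (adjusted p = 0.0184). At 2 µg IFIT1 thus stood below the control and IFIT2 above it. BST2, which tethers budding virus, and UBE2L6, the conjugating enzyme of ISG15, rose by 0.70 and 0.72 and lay far below the control at both doses. ISG15, IRF7 and HLA-B fell by 0.49, 0.63 and 0.51. Without either 4 µg array the call of IFIT1 ended (adjusted p of up to 0.0616), and that of IFIT2 ended without either 4 µg array or 2 µg replicate 1 (up to 0.133) and under scaling by the median of all probes.

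**Figure D4:**
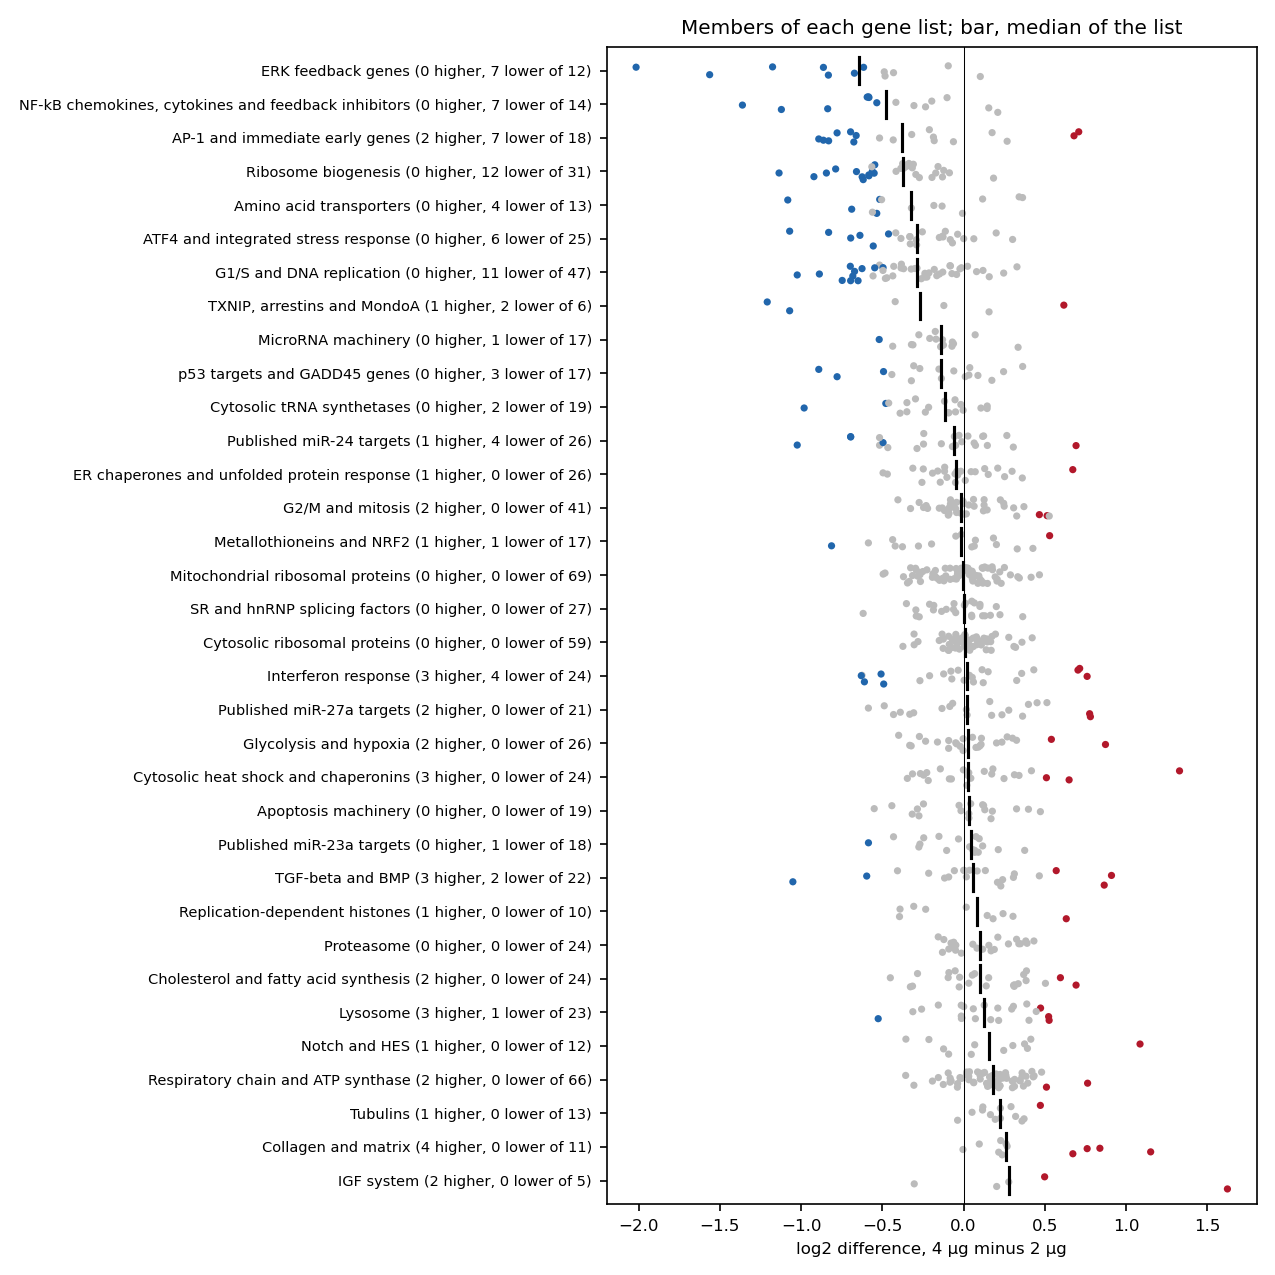
Log2 difference, 4 µg minus 2 µg, of every included member (points) of 34 gene lists, with the median of each list as a bar. Red points were called higher and blue points lower at 4 µg, with counts beside each name, and the medians run between -0.64 for ERK feedback genes and 0.28 for the IGF system.

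Apoptosis genes were followed because the cluster has been studied as a cause of cell death. Of 19 measured, 0 were called in limma's test, at a median of 0.03. At the other settings tried, at most 2 of the 19 were called, higher under scaling by the median of all probes and lower under scaling by the median of the tested genes. FADD, the adaptor of death receptors, was at 9.88 and 9.80 at 4 µg, 9.59 and 9.30 at 2 µg, and 9.81 and 9.92 in the control, a difference of 0.40 ± 0.14 that was not called (adjusted p = 0.0973). TNFRSF10A, a death receptor, and PMAIP1, the BH3-only protein NOXA, differed by -0.55 and -0.44 and were not called (adjusted p = 0.0531 and 0.0616). XIAP was detected on 1 of the 6 arrays and was not tested. The remaining pathway lists with 0 calls in this test were the splicing factors (27 genes) and the proteasome (24 genes), with at most 2 calls at any other setting. Of 17 measured p53 targets, 3 were lower (GADD45A, GADD45B and the exonuclease gene AEN, which fell by 0.49) and 0 higher. Of 13 tubulins, TUBB2B rose by 0.47, and of 17 metallothionein and NRF2 genes, FTL, the ferritin light chain, rose by 0.53 and SLC30A1, a zinc exporter, fell by 0.81. The call of TUBB2B ended without any 1 of the 6 arrays (up to 0.246), and those of FTL, AEN and SLC30A1 without 1 of several arrays (up to 0.245, 0.196 and 0.0813).

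The published targets of the 3 microRNAs were called in both directions. The called share was 5.56% for miR-23a, 9.52% for miR-27a and 19.2% for miR-24, against 9.08% of all included genes. For miR-23a, 1 of 18 measured targets was lower (TNFAIP3) and 0 higher, at a median of 0.05. For miR-27a, 2 of 21 were higher and 0 lower, at a median of 0.02. RXRA, a nuclear receptor, was at 9.77 and 9.74 at 4 µg, 9.14 and 8.82 at 2 µg, and 10.10 and 10.21 in the control, and rose by 0.78 ± 0.14 (adjusted p = 0.0114). ABCA1, a cholesterol exporter not detected on either 2 µg array, was at least 1.43-fold higher at 4 µg (adjusted p = 0.038). For miR-24, 4 of 26 were lower (RRM2, TRIB3, E2F2 and MCM10) and 1 was higher (INSIG1), at a median of -0.06. The medians of the miR-24 list and of the list of microRNA machinery turned positive under scaling by the median of all probes (0.08 and 0.03). Under that scaling 5 miR-27a targets were higher and 0 lower, and 1 miR-23a target was higher and 0 lower, the call of TNFAIP3 having ended. Of 17 genes of the machinery, the call was DICER1, the enzyme that cuts the hairpins. It was at 9.08 and 8.94 at 4 µg, 9.51 and 9.55 at 2 µg, and 9.47 and 9.31 in the control, and fell by 0.52 ± 0.13 (adjusted p = 0.0355). Its 4 µg arrays were the lowest of the 6, and the call ended without any 1 of the 4 dose arrays (up to 0.209). The calls of RXRA and ABCA1 ended without 1 of the 4 µg arrays (up to 0.0732 and 0.227).

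Some genes crossed the detection limit between the doses. On both 4 µg arrays and neither 2 µg array, 242 genes were detected. On both 2 µg arrays and neither 4 µg array, 24 were detected. These genes were included through the dose at which they are high, so that the direction of any call among them was fixed by that choice. Their calls are not counted apart here, but they are part of the 710 called genes and of the list counts above. ETV4, RELB, BMP2, BMP4, COL18A1 and ABCA1 are among them. The counts given above for genes detected on both arrays of both doses leave them out. The fold of such genes is a lower bound, and it was at most 1.71 (BMP4) for those detected at 4 µg and 2.03 (CYB5R2) for those detected at 2 µg. CYB5R2, a cytochrome b5 reductase, was at 5.86 and 6.14 at 4 µg, 7.43 and 7.33 at 2 µg, and 5.13 and 5.20 in the control, where it was not detected, and was lower at 4 µg at an adjusted p of 0.00122. ZNF467, a zinc finger gene, was at 7.14 and 7.30 at 4 µg, 5.36 and 5.80 at 2 µg, and 8.01 and 7.99 in the control, and was at least 1.66-fold higher at 4 µg (adjusted p = 0.00122). Both calls held without each array. More probes were detected on the 4 µg arrays than on the 2 µg arrays, and the part of this in the unequal counts of 242 and 24 was not tested.

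At the limit of inclusion, CYGB, just inside with a detection p of 0.00946 on its weaker array, was at 6.41 and 6.61 at 4 µg, 6.64 and 6.47 at 2 µg, and 6.60 and 6.61 in the control. DISC1, just outside with a detection p of 0.0102, was at 6.41 and 6.50 at 4 µg, 6.36 and 6.19 at 2 µg, and 6.73 and 6.51 in the control. Of the commonly used standards, GUSB was lower at 4 µg, as given above, and the brightest probes of GAPDH and ACTB were not called. GAPDH was at 11.61 and 11.57 at 4 µg, 11.72 and 11.25 at 2 µg, and 12.13 and 12.22 in the control, a difference of 0.10 ± 0.16 (adjusted p = 0.722). ACTB differed by -0.08 ± 0.14 (adjusted p = 0.755), its sign turning under scaling by the median of all probes, while its 2 other kept probes differed by -0.41 each, more than the standard error of the brightest one.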

How the data were processed

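The arrays were of the Illumina Human-6 type, and BeadStudio, whose version the sources used here do not give, was used per the submitters' processing notes. The deposited scanner table holds a mean bead intensity per probe, a bead number (count of beads), a bead standard error (signal) and a detection p-value, per the file headers. The authors' processed table holds a second intensity, which on each array was linear in the first after subtraction of a background, with a mean of 238.3.

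In R 4.3.3 with limma 3.58.1, neqc corrected the scanner intensities using the detection p-values, added an offset of 16, and quantile-normalized and log2-transformed them. Of 48701 probes, 10021 passed a detection p of 0.01 on both replicates of 1 or more groups, and 8455 of these had 1 gene symbol. Of 23687 probes with 1 symbol, 23651 matched the RefSeq table, and probes with several symbols (35) or none (24979) were not named. The brightest kept probe stood for each of 8018 genes. Of the included genes, 388 had several kept probes, and 0 genes had probes called in opposite directions.

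The 3 groups were fitted together (3 residual and 7.47 prior degrees of freedom), with two-sided tests and calls at a Benjamini-Hochberg adjusted p under 0.05 over all tested genes. The script was tested on simulated data. The duplicates are biological per the labels, and their number limits the precision of every value. Named genes were the 15 largest rises and falls among called genes without overlap, the 5 largest bounds and the 5 highest levels in each direction, the 4 members of each of 39 lists with the smallest p, and 12 genes always named. Other called members of a list, and the HOX, Frizzled and E2F genes in the closing section, were named after their values were seen. The members and lists were chosen with earlier results of these data known. Promoters and mature microRNAs came from RefSeq tables on GRCh38.p14. An "at least" fold sets the mean of the detected dose against, per array of the other, the higher of the lowest detected probe value and the probe's own. Alternatives were other normalizations, filters, fits and probe summaries, the replicate block, and each array left out in turn.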

Additional observations from a re-analysis of the deposited data

Results flagged for a closer look

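In 109 called genes the doses lay on opposite sides of the control, both arrays of one above and both of the other below, and in 74 of these the 4 µg arrays were the higher. The share of all included genes lying so was not counted. The difference between the doses was itself tested in the same limma fit as above, and the cause was not tested. Lying on 1 side of both control arrays is not a call against the control. In that fit TMEM187 and ARRDC4 were called against the control at both doses. S100A4 was not at 2 µg (adjusted p = 0.107), nor were COX6C and MCM6 at 4 µg (adjusted p = 0.701 and 0.115). RRM2 and FARSA were not called against it at 4 µg either (adjusted p = 0.0543 and 0.0616). SLC1A4, DICER1 and CDC25C were called against the control at neither dose. Their adjusted p was 0.406, 0.0606 and 0.0716 at 4 µg, and 0.0768, 0.397 and 0.449 at 2 µg. Among the named genes, the 4 µg arrays lay above and the 2 µg arrays below the control for S100A4 (fitted log2 difference 1.40), TMEM187 (1.11), LUM (0.93), COX6C (0.76), IFIT1 (0.76), IGF2R (0.50), CTSD (0.47) and CDC25C (0.47). The 4 µg arrays lay below and the 2 µg arrays above the control for ARRDC4 (-1.21), RRM2 (-1.02), FARSA (-0.98), MCM6 (-0.89), GUSB (-0.53), DICER1 (-0.52) and SLC1A4 (-0.52). Of these 15 genes, the calls of S100A4, TMEM187 and ARRDC4 held without each array in turn. LUM was not detected at 2 µg, so its fitted difference is no measured fold and only the bound of at least 1.42-fold given above holds. Groups of 2 arrays are too small to be checked for outlying samples.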

How the results depend on the processing

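Counts of genes called, with all arrays 720 (427 higher, 293 lower), ranged with 1 array left out between 98 and 559 in all, between 62 and 362 higher and between 36 and 217 lower. With no detection filter 284 genes were called (177 higher, 107 lower), and with median scaling over all probes 870 were higher and 102 lower. The other settings called between 581 and 956 genes, and every gene they shared with the quantile-normalized result kept its direction. With the replicate number as a block 712 genes were called (424 higher, 288 lower). The deviations of same-numbered arrays correlated at 0.11 between 4 µg and 2 µg, -0.10 between 4 µg and control and -0.04 between 2 µg and control. The labels do not say whether same-numbered samples were prepared together, and with 2 replicates these values cannot settle it. Of 104 named genes that were called, 104 kept their sign and 30 their call in every setting that tested them. The signs that turned were of genes that were not called. Without 1 array their values ranged between -0.016 and 0.3009 for CXADR, -0.0517 and 0.3476 for VIM, -0.2637 and 0.1759 for CD68, -0.102 and 0.0846 for HBA1, -0.1621 and 0.2442 for ELF3, -0.132 and 0.3372 for GAPDH, and -0.2 and 0.0408 for ACTB. Median scaling over all probes turned CD68 to 0.1367, HBA1 to 0.1955 and ACTB to 0.0837, median scaling over the tested genes HBA1 to 0.0251, the authors' values CD68 to 0.0012 and HBA1 to 0.0651, and the mean of its probes MUC1 to 0.08. The median of 10 of 39 lists changed sign with median scaling over all probes, and that of 20 in 1 or more of the settings. The causes were not tested.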

Other observations

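Some gene families, which overlap the lists in part, also held several called genes, and were chosen after their values were seen and given with no test of the family. Of 15 included HOX homeobox genes, which set position along the body axis, 4 were higher at 4 µg and 0 lower (26.7% called). Beside HOXC4 they were HOXB5, HOXC6 and HOXD10. HOXC6 was at 10.82 and 10.91 at 4 µg, 10.14 and 10.16 at 2 µg, and 11.41 and 11.05 in the control, and rose by 0.71 ± 0.15 (adjusted p = 0.0175). HOXB5 and HOXD10 rose by 0.51 and 0.57 (adjusted p = 0.0373 and 0.0358).

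Of 8 Frizzled genes, the Wnt receptors, 3 were higher and 0 lower (37.5% called). FZD4 was at 8.07 and 8.07 at 4 µg, 7.19 and 7.02 at 2 µg, and 8.67 and 8.64 in the control, and rose by 0.97 ± 0.13 (adjusted p = 0.00362). FZD2 rose by 0.55 (adjusted p = 0.0288), and FZD1 was not detected on either 2 µg array. Of 8 E2F genes, 4 were lower and 0 higher (50% called). Beside E2F1 and E2F2 these were E2F7 and E2F8, repressors of the family. E2F8 averaged 9.08 ± 0.02 at 4 µg, 9.95 ± 0.07 at 2 µg and 8.41 ± 0.01 in the control (SD, n = 2 each), and fell by 0.87 ± 0.12 (adjusted p = 0.00482). In HOXC6, FZD4 and E2F8 the dose arrays did not overlap. By contrast, of 222 included ZNF genes, 5 were higher and 12 lower (7.66% called, against 9.08% of all included genes).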
